A study of Drosophila melanogaster with 18 samples.

Results

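Insulator protein genes code for the proteins that bind, or are recruited to, chromatin boundary elements in Drosophila melanogaster. The 5 genes described are su(Hw), BEAF-32, CTCF, mod(mdg4) and Cp190, out of 8211 genes whose signal was high enough to be tested. Each gene is represented by the probe set with the highest mean signal among those annotated to that gene alone, and all 5 passed the filter on dim signals. The other probe sets are given where a gene has more than 1, which applies to mod(mdg4) with 22 and CTCF with 3.

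Insulators are DNA elements that block an enhancer from reaching a promoter when placed between them, and that mark borders between chromosomal domains. Su(Hw), BEAF-32 and CTCF are the DNA-binding proteins of separate classes of insulator. Cp190 and Mod(mdg4) carry a BTB domain through which proteins pair with one another, and they are brought to the DNA by those binding proteins. The mutants affect other chromatin proteins: HP1a binds histone H3 methylated at lysine 9, Su(var)3-9 and Setdb1 are methyltransferases that place this mark, and Pof coats chromosome 4.

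Expression was measured on 18 Affymetrix arrays hybridised with total RNA of whole 1st instar larvae. Each array holds a separate pool of 200 larvae, frozen about 48 hours after egg laying and raised at 25 °C. There were 6 wildtype pools (A to F) and 3 pools (A to C) of each mutant. The mutants were HP1a04/HP1a05 trans-heterozygotes, Setdb110.1/Setdb110.1 homozygotes, larvae with the allele Su(var)3-9evo over Su(var)3-906, and double mutants that carried PofD119 with each of the HP1a alleles (HP1a04 PofD119/HP1a05 PofD119). All 4 mutant groups are compared with the same 6 wildtype pools, so the comparisons with wildtype share their control. No source used here gives the wildtype strain, the sex of the larvae or the genotype of their mothers.

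The gene that codes for HP1a was lower in both groups labelled with HP1a alleles, by 0.72 and 0.68 on the log2 scale (limma adjusted p = 3.00e-07 and 4.61e-07). The probe set of Pof went against its label. It was 0.83 higher than in wildtype on the 3 arrays labelled as double mutants (adjusted p = 0.00104), which are therefore called the HP1a Pof-labelled arrays. The levels of Setdb1 and Su(var)3-9 were not analysed here. Array C of the Su(var)3-9 mutants stands apart. Its log2 signal was 11.6 for Lsp2, a larval serum protein gene of the fat body, and 11.1 for Fbp2, another fat body gene, where the 17 other arrays lay at 5.33 to 5.96 and at 4.72 to 5.26. It also gave the lowest log2 value of the Su(var)3-9 arrays for all 5 insulator genes, so the Su(var)3-9 differences of these genes from wildtype are given with and without it. Gut digestion genes, mostly trypsins, averaged 11.0 to 11.2 on the wildtype arrays and 9.21 to 10.2 on the mutant arrays.

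The 3 genes su(Hw), BEAF-32 and mod(mdg4) were lower in HP1a, Setdb1 and Su(var)3-9 mutants than in wildtype, at 46.2% to 73.9% of the wildtype signal. BEAF-32 and mod(mdg4) were also lower on the HP1a Pof-labelled arrays, at 68.9% and 72.8%. Cp190 passed the test in 1 of the 4 comparisons with wildtype, that of Su(var)3-9 mutants, and CTCF passed the test in none of the 4 comparisons. A gene was called where its limma p-value, adjusted by Benjamini and Hochberg's method over all 8211 genes, was under 0.05. Whole larvae were measured, so fewer cells of a type and less RNA per cell cannot be told apart.

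These calls have to be read against a transcriptome in which a large share of genes passed the same test. In HP1a mutants 3 of the 5 insulator genes were called lower, beside 35.6% of all tested genes. In Setdb1 mutants 3 of 5 were called lower, beside 35.2%. Of the 5, 4 were called lower in Su(var)3-9 mutants, beside 47.6%, and without array C 3 of 5, beside 38.9%. On the HP1a Pof-labelled arrays 2 of 5 were called lower, beside 35.8%. None of the 5 was called higher in HP1a, Setdb1 or Su(var)3-9 mutants or on the HP1a Pof-labelled arrays, where 23.5%, 17.3%, 16.3% and 25.0% of all genes were. Without array C the share of all genes called higher in Su(var)3-9 mutants was 16.0%. All mutant arrays lay below all wildtype arrays for 3 of the 5 genes in HP1a mutants and for all 5 in Setdb1 mutants, as they did for 33.7% and 33.8% of all genes. The count was 3 of 5 for Su(var)3-9 mutants and 3 of 5 for the HP1a Pof-labelled arrays, beside 42.8% and 36.6%, and without array C it was again 3 of 5 for Su(var)3-9 mutants, beside 44.0%. With only 5 genes, such shares do not set the group apart from the rest of the transcriptome.

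BEAF-32 and mod(mdg4), 2 of the 5, were called lower in all 4 comparisons, as were 22.6% of all tested genes. CTCF was called in none of the 4, like 12.5% of all genes. In the test for any difference among the 5 groups, 4 of the 5 insulator genes passed, beside 83.3% of all genes, and CTCF did not (limma F test, adjusted p = 0.0887). For HP1a, Setdb1 and Su(var)3-9 mutants the median log2 difference of the 5 genes was −0.44, −0.64 and −0.94, and for the HP1a Pof-labelled arrays it was −0.27. Over all tested genes it was −0.06, −0.11, −0.22 and −0.05. Without array C the Su(var)3-9 medians were −0.83 for the 5 genes and −0.15 for all genes. The following values include this general shift. Where it exceeds 0.1, in Setdb1 and Su(var)3-9 mutants, the differences of the insulator genes from wildtype after centring each array on its median are given as well.

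**Figure D1:**
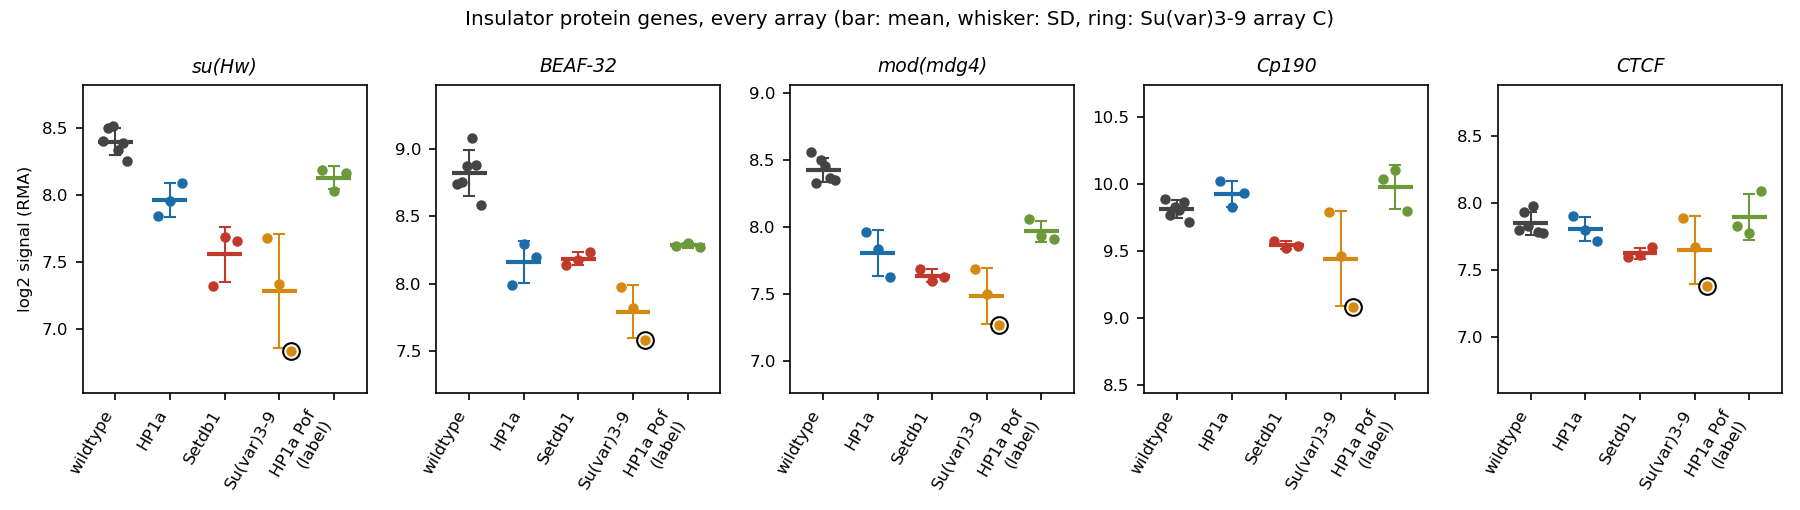
Log2 signal (RMA) of the 5 insulator genes on each of the 18 arrays, by group, with 1 point per array, a bar at the group mean and whiskers of 1 SD. The 6 wildtype points lie above all mutant points for su(Hw), BEAF-32 and mod(mdg4), and the ringed point, array C of the Su(var)3-9 mutants, is the lowest of its group in every panel.

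Among the DNA-binding proteins, su(Hw) on chromosome arm 3R codes for the zinc-finger protein of the gypsy insulator, and has 1 probe set. Its log2 signal in wildtype ranged from 8.25 to 8.52, with a median of 8.40. The HP1a arrays A, B and C gave 7.84, 7.95 and 8.10, and the Setdb1 arrays gave 7.33, 7.69 and 7.66. No array of these groups reached the lowest wildtype array. The Su(var)3-9 arrays gave 7.68, 7.34 and 6.84, the widest spread of any group for this gene (SD 0.43, n = 3, against 0.10 in wildtype, n = 6). The HP1a Pof-labelled arrays gave 8.19, 8.03 and 8.17, closest to wildtype but still below all of its arrays.

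The signal of su(Hw) fell by 0.44 in HP1a mutants (SE 0.14, adjusted p = 0.0122), to 73.9% of wildtype. This call was lost when HP1a array A was left out (difference −0.38, adjusted p = 0.0602). In Setdb1 mutants su(Hw) fell by 0.84 (adjusted p = 0.000105), to 55.8%, and after centring the difference was −0.73. In Su(var)3-9 mutants it fell by 1.11 (adjusted p = 4.35e-06), to 46.2%. The difference was −0.89 without array C (adjusted p = 1.53e-05) and also −0.89 after centring. For the HP1a Pof-labelled arrays the difference was −0.27, with a 95% interval from −0.56 to 0.02, and it did not pass the test (adjusted p = 0.0993). In Setdb1 and Su(var)3-9 mutants 6.38% and 5.64% of all tested genes had a lower log2 difference than su(Hw), and 8.20% in Su(var)3-9 mutants without array C. These shares were larger in HP1a mutants, at 23.8%, and on the HP1a Pof-labelled arrays, at 34.2%.

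BEAF-32 on chromosome arm 2R codes for a zinc-finger protein first isolated through its binding to the scs′ boundary beside the heat shock genes, and also has 1 probe set. Its log2 signal in wildtype ranged from 8.58 to 9.09, with a median of 8.82. The HP1a arrays gave 7.99, 8.29 and 8.20, and the Setdb1 arrays gave 8.14, 8.18 and 8.24. The Su(var)3-9 arrays gave 7.98, 7.81 and 7.58, all lower than any other array. The HP1a Pof-labelled arrays lay within 0.03 of one another, at 8.28, 8.30 and 8.27. The mutant arrays did not overlap with the wildtype arrays in any group.

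The log2 signal of BEAF-32 fell by 0.66 in HP1a mutants (SE 0.10, adjusted p = 4.43e-05), to 63.1% of wildtype. It fell by 0.64 in Setdb1 mutants (adjusted p = 9.34e-05), to 64.3%, or by 0.53 after centring. Su(var)3-9 mutants had 48.9% of the wildtype signal, a log2 difference of −1.03 (adjusted p = 5.06e-07). Without array C the fall was 0.93 (adjusted p = 6.87e-06), and after centring it was 0.81. On the HP1a Pof-labelled arrays BEAF-32 fell by 0.54 (adjusted p = 0.000288), to 68.9%. Each of these 4 calls held whichever array was left out.

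CTCF on chromosome arm 3L codes for the fly counterpart of the vertebrate insulator protein of the same name, which binds boundaries in the bithorax complex. Its brightest probe set ranged from 7.77 to 7.98 in wildtype, with a median of 7.81. The HP1a arrays gave 7.90, 7.80 and 7.72, on both sides of the wildtype median. The Setdb1 arrays, at 7.60, 7.61 and 7.67, lay below every wildtype array. The Su(var)3-9 arrays gave 7.88, 7.67 and 7.38, and the HP1a Pof-labelled arrays gave 7.82, 7.77 and 8.09, both overlapping with wildtype.

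The log2 difference of CTCF from wildtype was −0.04 in HP1a mutants (95% interval −0.25 to 0.16, adjusted p = 0.729). It was 0.05 on the HP1a Pof-labelled arrays (interval −0.16 to 0.25, adjusted p = 0.701). In Setdb1 mutants it was −0.22 (interval −0.43 to −0.02, adjusted p = 0.0655), and −0.11 after centring. The difference in Su(var)3-9 mutants was −0.20 (interval −0.41 to 0.00, adjusted p = 0.0794), and this value rested on single arrays. It was −0.07 without array C (adjusted p = 0.534) and −0.32 without array A (adjusted p = 0.00913), and 0.02 after centring. The other 2 probe sets of CTCF had a mean log2 signal of 4.20 and 4.12 over all arrays and were too dim to be tested. Their log2 differences from wildtype were between 0.14 and 0.80 in the 4 groups, opposite in sign to the tested probe set in 3 of them.

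Cp190 on chromosome arm 3R, the gene of the BTB and zinc-finger cofactor found at Su(Hw), CTCF and BEAF-32 sites, has 1 probe set. Its log2 signal in wildtype ranged from 9.72 to 9.89, with a median of 9.82. The HP1a arrays gave 10.02, 9.82 and 9.93, and the HP1a Pof-labelled arrays gave 10.03, 10.10 and 9.79. These 2 groups overlapped with wildtype and had the higher means. The Setdb1 arrays, at 9.57, 9.52 and 9.53, lay below every wildtype array. The Su(var)3-9 arrays ran from 9.79 (A) over 9.46 (B) to 9.08 (C), and array A lay within the wildtype range.

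Cp190 fell by 0.37 in Su(var)3-9 mutants (SE 0.11, adjusted p = 0.00931), to 77.4% of wildtype. The call was lost without array C (difference −0.19, adjusted p = 0.103) and after centring (−0.15, adjusted p = 0.199). In Setdb1 mutants the log2 difference was −0.27 (95% interval −0.51 to −0.03, adjusted p = 0.0569), and −0.16 after centring. It was 0.11 in HP1a mutants (interval −0.13 to 0.35, adjusted p = 0.406). On the HP1a Pof-labelled arrays it was 0.17 (interval −0.07 to 0.40, adjusted p = 0.215), and Cp190 was called higher there after centring (0.25, adjusted p = 0.0330). Against wildtype, Cp190 and CTCF thus gave no call that held both as deposited and after centring.

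**Figure D2:**
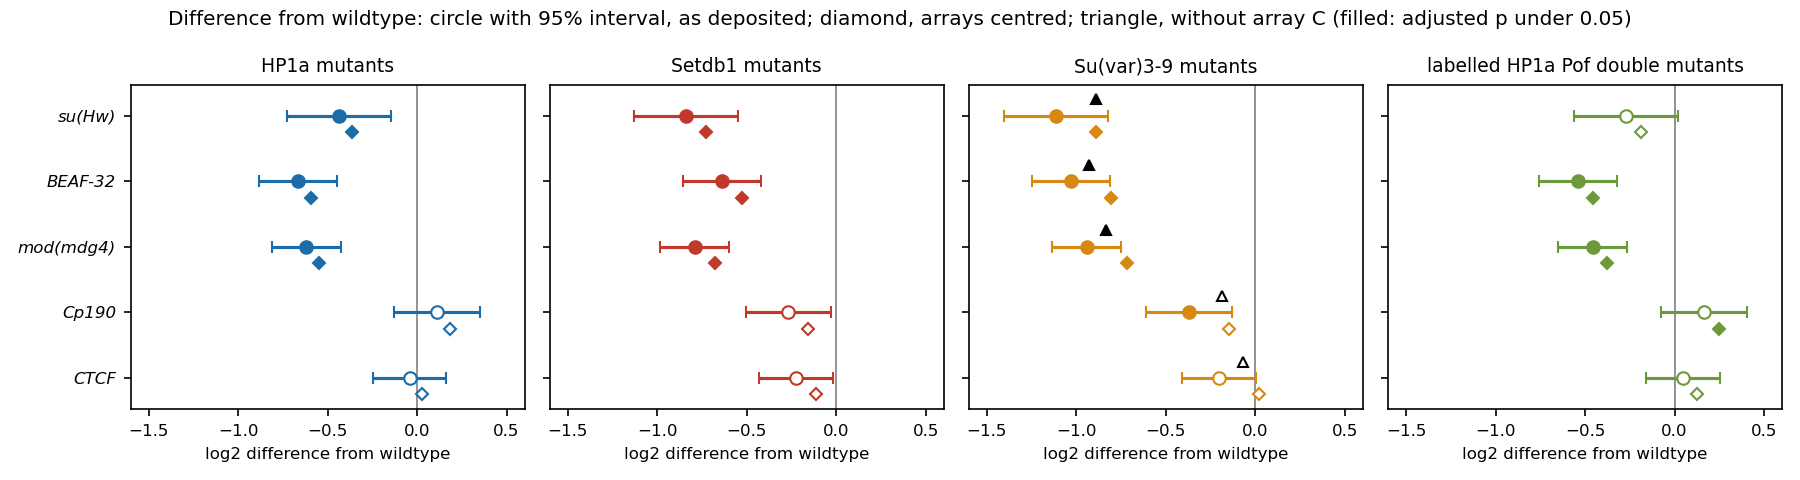
Log2 difference from wildtype of the 5 insulator genes in each mutant group. Circles with 95% intervals show the signals as deposited, diamonds the values after centring each array, and black triangles the Su(var)3-9 values without array C, with filled symbols at an adjusted p under 0.05. Filled circles stand at −0.44 to −1.11 for su(Hw), BEAF-32 and mod(mdg4), while CTCF has open symbols in all 4 panels.

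The gene mod(mdg4) on chromosome arm 3R codes for a family of BTB proteins, one of which bridges Su(Hw) in the gypsy insulator. Its transcripts share their first exons and differ in the last ones, some of which are joined by trans-splicing from the opposite strand. RefSeq lists 31 transcripts for it, and 22 probe sets on the array were annotated to it alone. Which transcripts each probe set reads was not given in the sources used here. The brightest probe set, 1637723_at, ranged from 8.33 to 8.56 in wildtype, with a median of 8.41.

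On this probe set the HP1a arrays gave 7.96, 7.84 and 7.63, and the Setdb1 arrays gave 7.69, 7.60 and 7.63. The Su(var)3-9 arrays gave 7.69, 7.50 and 7.27, and the HP1a Pof-labelled arrays gave 8.06, 7.94 and 7.91. All 12 mutant arrays were below all 6 wildtype arrays. The log2 signal fell by 0.62 in HP1a mutants (SE 0.09, adjusted p = 2.75e-05), to 65.1% of wildtype, and by 0.79 in Setdb1 mutants (adjusted p = 3.93e-06), to 57.8%. It fell by 0.94 in Su(var)3-9 mutants (adjusted p = 3.73e-07), to 52.1%, and by 0.83 without array C (adjusted p = 3.76e-06). On the HP1a Pof-labelled arrays it fell by 0.46 (adjusted p = 0.000403), to 72.8%. After centring, the differences were −0.68 in Setdb1 and −0.72 in Su(var)3-9 mutants.

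The other probe sets of mod(mdg4) did not all follow. Of the 22, 12 were bright enough to be tested, together with 8807 single-gene probe sets of all genes. Of these 12, 2 were called lower in all 4 comparisons, 6 in 1 to 3 of them, 1 was called higher, and 3 were called in none. Per comparison, 3 were called lower in HP1a mutants and 3 on the HP1a Pof-labelled arrays, beside 34.8% of all tested probe sets in each. In Setdb1 mutants 6 were called lower, beside 34.3%. Another 6 calls of a lower signal were made in Su(var)3-9 mutants, beside 46.5%, and 5 without array C, beside 38.1%. The probe set called higher was so in HP1a mutants, in Setdb1 mutants and on the HP1a Pof-labelled arrays, beside 24.4%, 18.3% and 26.1%. These counts are those of the deposited signals. After centring, only 1637723_at, 1631833_at and 1634258_at kept lower calls in Setdb1 mutants, and only 1637723_at, 1640268_at and 1640554_at in Su(var)3-9 mutants. Of all genes 26.5% and 28.7% were then called lower. On the HP1a Pof-labelled arrays 1631742_s_at (0.32) and 1632973_at (0.22) were also called higher after centring.

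The second probe set called lower in every comparison was 1631833_at, with log2 differences of −0.33, −0.48 and −0.44 in the single mutants of HP1a, Setdb1 and Su(var)3-9. Its difference was −0.35 on the HP1a Pof-labelled arrays. In Su(var)3-9 mutants it was −0.48 without array C, and after centring it was −0.22 and the call was lost (adjusted p = 0.0744). The probe set 1626650_at moved the other way. Its log2 signal in wildtype lay between 6.60 and 6.87. The HP1a arrays gave 7.36, 7.01 and 7.26, the Setdb1 arrays 7.18, 7.40 and 7.35, and the HP1a Pof-labelled arrays 7.15, 7.27 and 7.26, all above every wildtype array. It was 0.46, 0.56 and 0.47 higher than in wildtype in these 3 groups. The Su(var)3-9 arrays, at 6.81, 6.72 and 6.77, lay within the wildtype range, with a difference of 0.01 that did not pass the test, but after centring it was called higher there too (0.24, adjusted p = 0.0288).

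Probe set 1640554_at fell by 0.57 in Su(var)3-9 mutants, and by 0.56 without array C, while its log2 difference was 0.05 in HP1a mutants and did not pass the test there. Probe set 1627953_at fell by 0.37 in Setdb1 mutants, where 1636765_at fell by 0.30. Both of these, with differences of 0.02 and 0.03 in Su(var)3-9 mutants, or 0.13 each without array C, did not pass the test there. After centring, neither kept its call in Setdb1 mutants (−0.26 and −0.18), and 1636765_at was called higher in Su(var)3-9 mutants (0.25, adjusted p = 0.0280). Probe sets 1640554_at and 1627953_at reached the filter at log2 6 on only 4 arrays each. No Su(var)3-9 array was among them for 1640554_at, and no Setdb1 array for 1627953_at. Both passed the filter through groups where they were higher, so these falls, which are among the calls counted above, are not independent of it. The 10 probe sets below the filter had log2 differences between −0.55 and 0.69. Averaging all 22 probe sets of the gene took away all 4 calls of mod(mdg4), and gave a difference of 0.04 in HP1a mutants and 0.07 on the HP1a Pof-labelled arrays. That average takes in the 10 probe sets below the filter, which can dilute a fall, so it cannot tell how the gene as a whole moved. The calls of mod(mdg4) describe its brightest probe sets, and its other tested probe sets did not all follow.

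**Figure D3:**
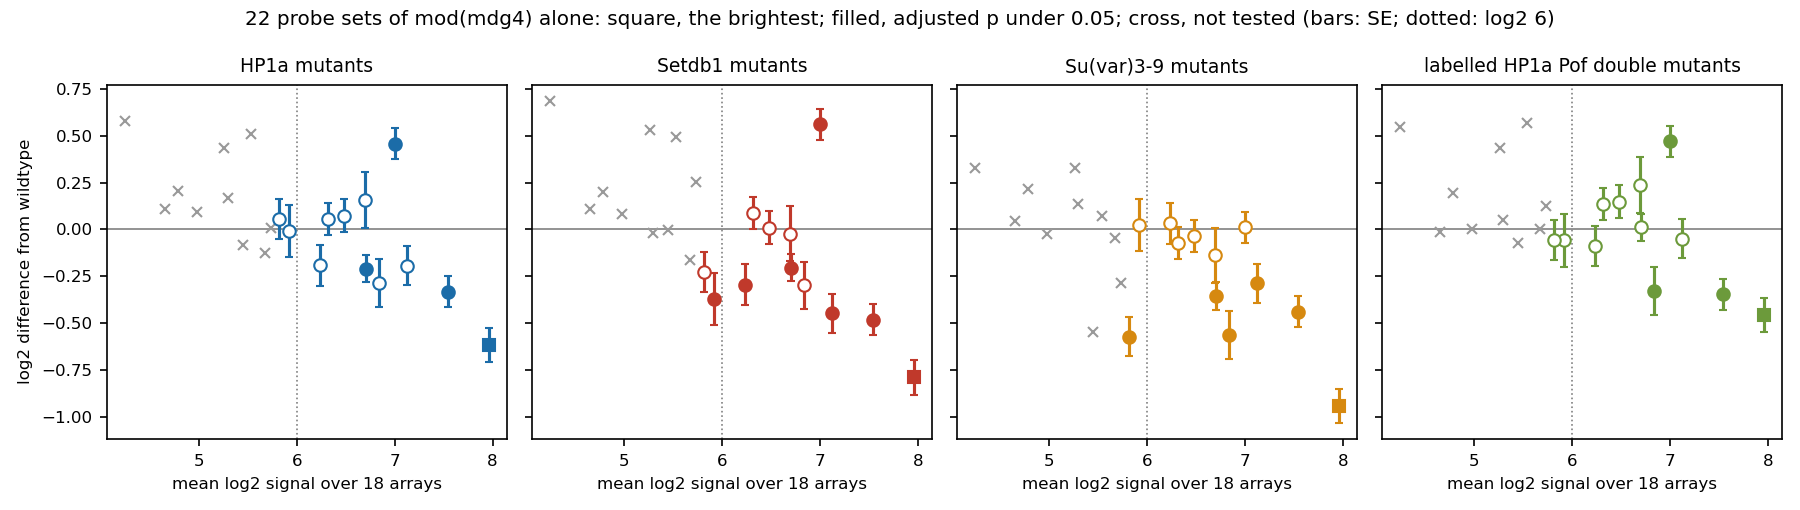
Log2 difference from wildtype against mean log2 signal over all 18 arrays for the 22 probe sets annotated to mod(mdg4) alone, in each mutant group. Squares mark 1637723_at, bars are standard errors, filled symbols passed an adjusted p of 0.05, and crosses were too dim to be tested. The 2 brightest probe sets lie below 0 in all 4 panels, and 1626650_at, near a mean of 7, lies above 0 in all but the Su(var)3-9 panel, where it is at 0.01.

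A further 3 probe sets were annotated to mod(mdg4) and other genes, and were not tested. Probe set 1628562_s_at, shared with pre-mod(mdg4)-Z and pre-mod(mdg4)-T, had a mean log2 signal of 9.00 ± 0.06 in wildtype (SD, n = 6). The HP1a and Setdb1 means were 8.80 ± 0.17 and 8.70 ± 0.04, and the means of Su(var)3-9 mutants and of the HP1a Pof-labelled arrays were 8.33 ± 0.28 and 8.84 ± 0.08 (SD, n = 3 each). All 4 mutant means were below that of wildtype. Probe set 1637260_at, shared with CG6066, had means between 7.69 and 7.80 in the 5 groups.

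Among the 4 mutant groups, 30 differences were tested, 5 genes in 6 pairs of groups, and 12 were called. None of the 5 genes differed between the HP1a Pof-labelled arrays and the HP1a mutants, where 0.731% of all genes were called in either direction. The widest interval there was that of su(Hw), a log2 difference of 0.17 with a 95% interval from −0.17 to 0.50. None was called between Setdb1 and HP1a mutants either, beside 18.5% of all genes. The log2 differences there were −0.40 for su(Hw) (adjusted p = 0.0857) and −0.38 for Cp190 (adjusted p = 0.0530). All Setdb1 arrays lay below all HP1a arrays for these genes and CTCF, 3 of the 5, beside 15.9% of all genes. Cp190 was called lower in Setdb1 than in HP1a mutants after centring (−0.34, adjusted p = 0.0398) and after quantile normalization (−0.41, adjusted p = 0.0259).

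Against HP1a mutants, 4 of the 5 genes were called lower in Su(var)3-9 mutants, beside 28.2% of all genes. The log2 difference was −0.68 for su(Hw), −0.37 for BEAF-32, −0.32 for mod(mdg4) and −0.48 for Cp190. Without array C, su(Hw) alone kept its call (−0.45, adjusted p = 0.0199). The adjusted p then was 0.124 for BEAF-32, 0.132 for mod(mdg4) and 0.0506 for Cp190. The median of all genes differed by −0.14 between these groups. After centring, BEAF-32 (−0.21, adjusted p = 0.124) and mod(mdg4) (−0.17, adjusted p = 0.148) lost their calls, as they did after quantile normalization, and su(Hw) (−0.52) and Cp190 (−0.33) kept them. Against Setdb1 mutants, BEAF-32 was the only one called lower in Su(var)3-9 mutants (−0.39, adjusted p = 0.0222), beside 19.0% of all genes, and this call was lost without array C (−0.29, adjusted p = 0.109), after centring (−0.28, adjusted p = 0.0646) and after quantile normalization (−0.28, adjusted p = 0.0739).

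On the HP1a Pof-labelled arrays, 4 of the 5 genes were called higher than in Su(var)3-9 mutants, beside 32.4% of all genes. The log2 difference was 0.84 for su(Hw), 0.49 for BEAF-32, 0.48 for mod(mdg4) and 0.54 for Cp190. All 4 calls held without array C, at 0.62, 0.39, 0.38 and 0.35, and after centring, at 0.70, 0.35, 0.34 and 0.39. Against Setdb1 mutants, 3 of the 5 were called higher on these arrays, beside 13.3% of all genes, with 0.57 for su(Hw), 0.33 for mod(mdg4) and 0.43 for Cp190. Of the 18 fits that left out 1 array, 2, 4 and 4 lost these calls (limma adjusted p up to 0.0616, 0.103 and 0.0913). CTCF was called in none of the 6 pairs.

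Ordered by their group means, su(Hw) and mod(mdg4) both ran from wildtype over the HP1a Pof-labelled arrays, HP1a and Setdb1 mutants to Su(var)3-9 mutants. For su(Hw) no neighbours in that order differed by the test. For mod(mdg4) wildtype and the HP1a Pof-labelled arrays did, and no other neighbours. BEAF-32 had the order wildtype, HP1a Pof-labelled arrays, Setdb1, HP1a and Su(var)3-9 mutants. Its first and last steps passed the test, the last one not without array C or after centring. For Cp190 the HP1a Pof-labelled arrays had the highest mean, followed by HP1a mutants, wildtype, Setdb1 and Su(var)3-9 mutants. The order of CTCF was the HP1a Pof-labelled arrays, wildtype, HP1a, Su(var)3-9 and Setdb1 mutants. No neighbours differed by the test for Cp190 or CTCF.

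Markers of other cells moved between the groups as well. Of 9 gut digestion genes tested, 8 were called lower in HP1a mutants, 8 in Su(var)3-9 mutants, 8 on the HP1a Pof-labelled arrays and 7 in Setdb1 mutants, beside the 35.2% to 47.6% of all genes given above. Without array C it was 7 in Su(var)3-9 mutants. The remaining trypsin gene betaTry was called higher in all 4, with log2 differences between 1.06 (Setdb1) and 1.64 (HP1a), and of 1.40 in the Su(var)3-9 group without array C. The 8 genes of dividing cells averaged 7.90 to 8.27 on the wildtype arrays, 8.27 to 8.39 in HP1a, 7.73 to 8.01 in Setdb1 and 7.50 to 8.11 in Su(var)3-9 mutants, and 8.32 to 8.54 on the HP1a Pof-labelled arrays. The 9 neuronal genes averaged 7.80 to 8.03 in wildtype, 8.29 to 8.72 in HP1a, 7.82 to 8.32 in Setdb1 and 7.49 to 8.15 in Su(var)3-9 mutants, and 8.56 to 8.83 on the HP1a Pof-labelled arrays. The averages of both lists were thus highest in the 2 groups labelled with HP1a alleles, but not all of their genes moved. Of the 8 genes of dividing cells, 4 were called higher in HP1a mutants and 5 on the HP1a Pof-labelled arrays. Of the 9 neuronal genes, 5 and 6 were. None of either list was called lower there, and 23.5% and 25.0% of all genes were called higher. In Setdb1 mutants 2 genes of dividing cells were called lower and 0 higher, and 2 neuronal genes lower and 2 higher. In Su(var)3-9 mutants these counts were 3 and 1, and 4 and 2, or without array C 2 and 1, and 2 and 2. Of all genes, 35.2% were called lower and 17.3% higher in Setdb1 mutants. The shares in Su(var)3-9 mutants were 47.6% and 16.3%, or 38.9% and 16.0% without array C. The neuronal counts include the dim gene VGlut. Its mean was 4.78 in wildtype, 5.84 in HP1a mutants and 6.20 on the HP1a Pof-labelled arrays. The germline markers vas and bam were too dim to be tested. The other 2 on the array, piwi and aub, were called higher in HP1a mutants, by 0.46 (adjusted p = 0.0442) and 0.59 (adjusted p = 0.000384), and on the HP1a Pof-labelled arrays, by 0.58 (adjusted p = 0.0130) and 0.41 (adjusted p = 0.00540). In Su(var)3-9 mutants aub was called higher (0.27, adjusted p = 0.0490), though not without array C (0.24, adjusted p = 0.151), and neither gene was called in Setdb1 mutants. Both lay near the filter at log2 6, with means of 5.44 (piwi) and 5.57 (aub) in wildtype. Their means were 5.90 and 6.16 in HP1a mutants and 6.02 and 5.98 on the HP1a Pof-labelled arrays. Genes this dim can pass the filter through the groups where they are high, so these calls are not independent of it. The signal of 18S ribosomal RNA was 12.2 to 12.4 in wildtype and 8.95 to 11.1 on the mutant arrays. The log2 signal of the 3' minus the 5' control probe sets of actin, GAPDH and eIF-4a averaged 1.46 to 1.92 on the wildtype arrays. It was 1.41 to 1.91 in HP1a, 1.16 to 1.33 in Setdb1 and 1.24 to 1.47 in Su(var)3-9 mutants. On the HP1a Pof-labelled arrays it was 1.43 to 1.54. The part of these differences in the results for the insulator genes was not tested.

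Other architectural protein genes gave mixed calls. Their differences are those of the deposited signals unless centring is named. The list held 31 genes with a probe set of their own, of which 26 passed the filter. Of these 26, 4 were called lower and 5 higher in HP1a mutants, beside 35.6% and 23.5% of all genes. The same counts held on the HP1a Pof-labelled arrays, beside 35.8% and 25.0%. In Setdb1 mutants 9 were called lower and 2 higher, beside 35.2% and 17.3%. Su(var)3-9 mutants had 16 called lower and 3 higher, beside 47.6% and 16.3%, and without array C 9 lower and 3 higher, beside 38.9% and 16.0%. The counts of the smaller lists that follow, and of the neighbouring genes, stand beside the same shares of all genes, except those after centring. After centring 31.4%, 26.5%, 28.7% and 31.3% of all genes were called lower in HP1a, Setdb1 and Su(var)3-9 mutants and on the HP1a Pof-labelled arrays. In that order 2461, 2105, 2396 and 2636 of the 8211 genes were called higher. For HP1a, Setdb1, Su(var)3-9 and the HP1a Pof-labelled arrays in turn, the median log2 difference of the 26 genes was −0.02, −0.13, −0.28 and 0.03, within 0.1 of that of all genes in each case. Without array C it was −0.18 in Su(var)3-9 mutants, where that of all genes was −0.15.

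Among 9 further DNA-binding proteins, 4 (Ibf1, Ibf2, M1BP and ZIPIC) were called lower in each of HP1a mutants, Setdb1 mutants and the HP1a Pof-labelled arrays. There were 8 in Su(var)3-9 mutants, and 5 without array C. Ibf1 and Ibf2, partner proteins that bind insulators together and recruit Cp190, were called lower in all 4 comparisons. With HP1a, Setdb1, Su(var)3-9 and the HP1a Pof-labelled arrays in turn, the log2 signal of Ibf1 fell by 0.56, 0.67, 0.71 (0.58 without array C) and 0.44. Ibf2 fell by 0.50, 0.57, 0.49 (0.44 without array C) and 0.45 in the same order. M1BP, which binds motif 1 of promoters, fell by 0.28, 0.26, 0.60 (0.46 without array C) and 0.24, but after centring its calls in Setdb1 mutants and on the HP1a Pof-labelled arrays were lost (−0.15 each). Trl, the gene of GAGA factor, fell by 0.50 in Su(var)3-9 mutants (0.37 without array C), and its log2 differences in the other groups, between −0.12 and 0.11, did not pass the test. After centring, the counts of these 9 genes called lower were 4, 3, 5 and 3, and those called higher 0, 0, 1 and 1.

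Among 8 cofactor genes, Topors, whose product is a ubiquitin ligase tied to the gypsy insulator, was higher than in wildtype by 0.54 in HP1a and 0.41 in Su(var)3-9 mutants (0.48 without array C) and by 0.39 on the HP1a Pof-labelled arrays. Its difference in Setdb1 mutants, 0.20, did not pass the test, but did after centring (0.31, adjusted p = 0.0104). Rm62, an RNA helicase, was higher by 0.29 in HP1a mutants and by 0.45 on the HP1a Pof-labelled arrays. Chro, the gene of the chromodomain protein Chromator, fell by 0.61 in Su(var)3-9 mutants (0.37 without array C). The gene shep, coding for an RNA-binding protein that acts on the gypsy insulator in neurons, fell by 0.64 in Setdb1 mutants. It also fell by 0.58 in Su(var)3-9 mutants, a call lost without array C (difference −0.31, adjusted p = 0.0829). In all, 3 cofactor genes were called higher and 0 lower in HP1a mutants and on the HP1a Pof-labelled arrays. In Setdb1 mutants 1 was called lower and in Su(var)3-9 mutants 3 lower and 1 higher, or 1 lower and 1 higher without array C. After centring, 3, 3, 2 and 4 of the 8 were called higher and 0, 1, 1 and 0 lower, in the order HP1a, Setdb1, Su(var)3-9 and HP1a Pof-labelled arrays.

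Among 9 cohesin and condensin genes, the condensin subunit genes glu and Cap-H2 were called higher in all 4 comparisons. For glu the log2 differences of HP1a, Setdb1 and Su(var)3-9 mutants were 0.60, 0.43 and 0.56 (0.56 without array C), and that of the HP1a Pof-labelled arrays was 0.48. For Cap-H2 it was 0.45, 0.39, 0.42 (0.52 without array C) and 0.66. With the deposited signals the cohesin genes moved downwards where they passed the test, but after centring pds5, the gene of a cohesin regulator, was called higher in HP1a mutants (0.33, adjusted p = 0.00582) and on the HP1a Pof-labelled arrays (0.31, adjusted p = 0.00889). SA1, a cohesin subunit gene, fell by 0.42 in Setdb1 and 0.50 in Su(var)3-9 mutants (0.38 without array C). The gene wapl, whose product releases cohesin, fell by 0.38 in Setdb1 and 0.52 in Su(var)3-9 mutants, the latter call being lost without array C (−0.32, adjusted p = 0.0697), and both after centring (−0.27 and −0.30). The condensin subunit gene SMC2 was also called lower in Setdb1 mutants (−0.29, adjusted p = 0.00564), a call lost after centring (−0.18, adjusted p = 0.0565). Of the 9 genes, 4 were called lower in Setdb1 and 5 in Su(var)3-9 mutants, or 3 without array C, and after centring 2 and 1.

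**Figure D4:**
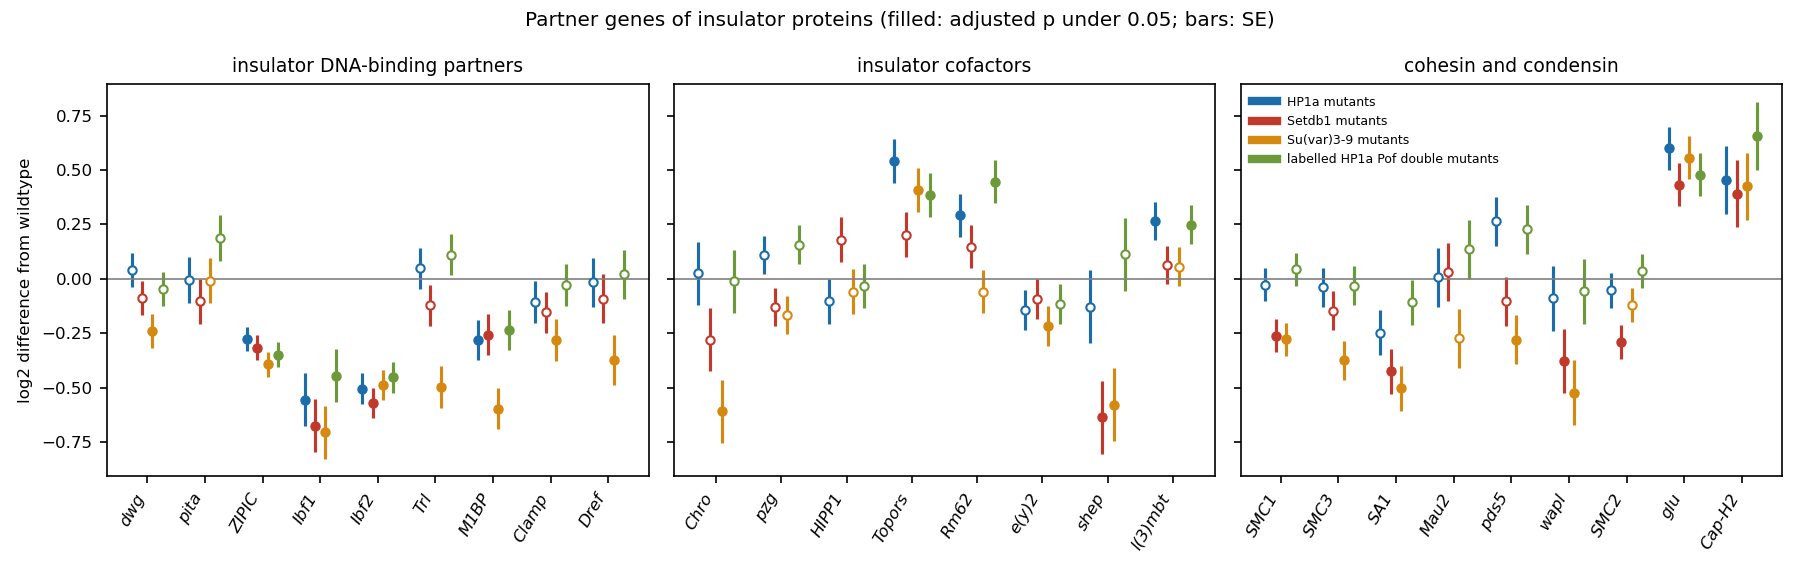
Log2 difference from wildtype, with standard errors, of the 26 tested genes for other insulator DNA-binding proteins, insulator cofactors, and cohesin or condensin subunits, in the 4 mutant groups. Filled points passed an adjusted p of 0.05. Ibf1, Ibf2, M1BP and ZIPIC lie below 0 with filled points in all 4 groups, and glu and Cap-H2 lie above 0 in all 4.

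The nearest tested genes on either side of each insulator gene, 10 in all, did not share 1 direction. In HP1a mutants 3 of the 10 were called lower and 2 higher, in Setdb1 mutants 3 and 1, and on the HP1a Pof-labelled arrays 4 and 2. With Su(var)3-9 mutants there were 6 lower and 1 higher, and without array C 5 and 1. Next to BEAF-32, Trs31, which codes for a subunit of a vesicle tethering complex, fell by 0.63, 0.44, 0.77 (0.69 without array C) and 0.72 in HP1a, Setdb1 and Su(var)3-9 mutants and on the HP1a Pof-labelled arrays. The gene on its other side, kn, which codes for a transcription factor, was 0.76 higher in HP1a mutants. Beside CTCF, which was not called, qm fell by 0.72, 0.43, 0.86 (0.83 without array C) and 0.51 in that order.

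The likeness of expression patterns was measured as the root mean square difference between 2 genes over the 18 arrays, after each gene was centred on its own mean. Among the insulator genes BEAF-32 and mod(mdg4) were the closest pair, at 0.159, followed by Cp190 and CTCF at 0.172. The distance was 0.207 between su(Hw) and mod(mdg4) and 0.219 between su(Hw) and BEAF-32, while all other pairs lay between 0.309 and 0.351. These distances share the arrays and their scaling, and depend on how much each gene varies. There were 36 other genes closer to BEAF-32 than mod(mdg4) was, and 575 closer to Cp190 than CTCF was. For su(Hw), 38 genes were closer than mod(mdg4) and 67 closer than BEAF-32.

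The genes closest to each insulator gene were PH4alphaEFB, a prolyl hydroxylase gene, for su(Hw) (0.116) and Creld for BEAF-32 (0.111). The closest to mod(mdg4) was p130CAS (0.101), the closest to Cp190 was Tao (0.0856), a kinase gene, and the closest to CTCF was Usp30 (0.0786). The next closest were CycE, the cyclin E gene, for su(Hw) (0.153), l(3)73Ah for BEAF-32 (0.121), X11L for mod(mdg4) (0.102), Dp1 for Cp190 (0.0891) and aux for CTCF (0.0840). Over the 17 arrays without array C of the Su(var)3-9 mutants, PH4alphaEFB, Creld and Usp30 remained the closest genes to su(Hw), BEAF-32 and CTCF. CG12054 (0.0874) then was the closest to mod(mdg4) and Dp1 (0.0813) the closest to Cp190.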

How the data were processed

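Total RNA of whole larvae was hybridised to 18 Affymetrix arrays, 1 per pool of larvae. The deposited values are log2 signals per probe set that the authors made with RMA, per the submitters' processing notes, which normalizes between arrays and can so reduce a shift shared by most genes. No source used here gives an RMA version or a genome build. The deposited log2 values were used as they are. Arrays give no read depth, and precision is limited by the number of arrays.

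Of 18952 probe sets, 13647 were annotated to exactly 1 gene, and 13544 of these were matched to a current RefSeq symbol by gene identifier. Each of 11982 genes was represented by its probe set of highest mean. Genes with a log2 signal of 6 or more on at least 3 arrays were tested, which left 8211. One linear model of 5 groups was fitted with limma 3.58.1 in R 4.3.3 (lmFit and eBayes, 13 residual degrees of freedom), with Benjamini-Hochberg adjustment over all tested genes within each comparison. Probe sets were tested likewise over all 8807 single-gene probe sets that passed the filter. The method was tested on simulated data. Per the labels the replicates are biological.

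The insulator genes, the partner genes, the marker lists and the rules for naming genes were chosen with earlier results of these data known. Partner genes are named where they were among the 4 of their list with the largest called changes, and like genes where they were the 2 closest. The mod(mdg4) probe sets named beside the brightest and the neighbouring genes named, and betaTry, VGlut, ZIPIC, SMC2 and pds5, were chosen after their values were seen.

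The letters A to C of the pools were checked for pairing through the correlation of same-letter deviations from the group means. Every such correlation exceeded 0.1 in the comparisons of HP1a, Setdb1 and Su(var)3-9 mutants with wildtype (lowest 0.334, 0.270 and 0.105), but not for the HP1a Pof-labelled arrays (lowest 0.0784). Alternatives were the scaling, the filter, the probe set rule, array weights, the variance prior, the samples in the fit, the replicate block and leaving out each array.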

Additional observations from a re-analysis of the deposited data

How the results depend on the processing

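The differences of the 5 insulator genes were recomputed under 29 other settings, 18 of which left out 1 array, and 1410 values were compared. Of these, 1333 stayed on their side of the threshold, 43 lost their call, 32 gained one and 2 called values changed sign. A further 13 values that were not called changed sign, such as CTCF in Su(var)3-9 mutants, at 0.02 after centring. Both sign changes of called values came from averaging all probe sets of mod(mdg4), at 0.0382 in HP1a mutants (adjusted p = 0.627) and 0.0657 on the HP1a Pof-labelled arrays (adjusted p = 0.39). That average takes in its dim probe sets. The number of insulator genes called for the latter arrays against wildtype, 2, became 1 of the 4 genes tested with that average, CTCF not being tested there, and 4 with array weights. With only the 2 groups compared in the fit, 5 genes instead of 3 were called in Setdb1 mutants, and 6 instead of 12 calls were made among the mutant groups. The cause was not tested. Leaving out 1 array gave 2 to 3 calls in HP1a, 3 to 5 in Setdb1 and 3 to 5 in Su(var)3-9 mutants, 2 to 3 on the HP1a Pof-labelled arrays, 9 to 18 among the mutant groups and 4 to 5 among the 5 groups. For most of these settings the share of all genes called is not given, so the counts do not set the insulator genes apart. The 5 calls in Setdb1 mutants came without Su(var)3-9 array A or C. The 18 came without Su(var)3-9 array A, and without array C there were 11. Leaving out the HP1a Pof-labelled arrays, an alternative chosen after seeing the data, kept 3, 3 and 4 calls in the other comparisons with wildtype. The letters A to C as a replicate block changed no call of an insulator gene against wildtype, with counts of 3, 3, 4 and 2, nor the 12 calls among the mutant groups. Centring moved the genes called in Su(var)3-9 mutants from 3910 lower and 1337 higher to 2355 and 2396, and quantile normalization to 2752 and 2030. With a filter at log2 8, CTCF was not tested. Signals near background limit the dim probe sets, and 3 arrays a group limit the rest.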
